A study of Homo sapiens with 6 samples.

Results

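The genes described here are 42 matrix proteases, plasminogen system genes and their inhibitors, chosen by name as the matrix metalloproteinases (MMPs), the ADAM and ADAMTS proteases, the plasminogen activators, the membrane serine proteases, the inhibitors of these enzymes and the collagen uptake receptor MRC2. They were taken out of 19740 genes whose RefSeq accession gave a symbol to at least 1 probe of the array. All 42 were found, with 52 probes in all, 1 probe for 33 genes and 2 or 3 for the other 9. RNA came from CAL-27, a long-established human line of tongue squamous carcinoma cells. The knockdown group carried an shRNA directed at XBP-1s (shXBP-1s, n = 3), and the reference group carried a control shRNA (shCtrl, n = 3), each sample on 1 Agilent 1-colour array, to ask which transcripts change when the spliced form of the stress transcription factor XBP-1 is depleted. By the study's methods the cells were stably transduced, and the labels do not say whether the 3 samples of a group were separate cultures, so that the p-values measure only the spread between these samples. Passage, dose and time after transduction are not given in the sources used here.

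Cells remodel the matrix around them with a small number of protease families. MMPs are zinc enzymes that are made as inactive proenzymes, are secreted or held at the membrane, and are blocked by the tissue inhibitors of metalloproteinases (TIMPs). ADAMs cut growth factors and receptors off the cell surface, and ADAMTS proteases cut proteoglycans. The urokinase activator PLAU, bound to its receptor PLAUR, turns plasminogen into plasmin, and serpins such as SERPINE2 stop it. Membrane serine proteases such as matriptase (ST14) act at the epithelial surface under the control of the Kunitz inhibitors SPINT1 and SPINT2. In squamous carcinomas, collagenases, stromelysins and urokinase are well known products of the tumour cells at the invading edge.

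The genes MMP7, MMP20, MMP27, MMP8, MMP10, MMP1, MMP3, MMP12 and MMP13 follow each other on chromosome 11. RefSeq promoter sequence was at hand for 21 of the 42 genes, among them MMP10 and MMP7 of that row. The 250 bases before the start site of both genes are shown. They were picked because MMP10 carried the largest change of the MMPs and MMP7 a small one. In capitals are the letters TGANTCA (the AP-1 element, the same on either strand) and TATAAA.
MMP10, GRCh38.p14, chr11:102780629-102780878, minus strand: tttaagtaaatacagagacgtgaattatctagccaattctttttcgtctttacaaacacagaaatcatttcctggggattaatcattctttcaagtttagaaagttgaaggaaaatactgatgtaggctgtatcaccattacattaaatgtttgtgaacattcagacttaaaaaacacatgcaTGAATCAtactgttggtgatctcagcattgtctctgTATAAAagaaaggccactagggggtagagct
MMP7, GRCh38.p14, chr11:102530748-102530997, minus strand: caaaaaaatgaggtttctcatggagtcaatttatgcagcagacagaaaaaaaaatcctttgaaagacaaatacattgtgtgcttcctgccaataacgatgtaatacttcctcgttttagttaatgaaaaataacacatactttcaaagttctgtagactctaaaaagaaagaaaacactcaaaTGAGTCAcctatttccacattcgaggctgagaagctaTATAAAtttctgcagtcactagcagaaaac
In both promoters the AP-1 letters began at position -67 from the start site, and the TATAAA letters began at -31 in MMP10 and at -30 in MMP7. TGANTCA occurred in 4 of the 24 promoters given for the 21 genes (MMP10, MMP7, PLAUR and SPINT1) and in 7.71% of all 35116 promoters of the same length of 250 bases before and 50 after the start site. TATAAA, on either strand, occurred in 3 of the 24 (MMP10, MMP7 and TMPRSS11E) and in 11.5% of all. The core of the XBP1 element, TGACGTG on either strand, occurred in 1 of the 24 (TIMP1) and in 1.97% of all, and the ER stress response element (ERSE) in 0 of the 24 and in 0.0769% of all. GGAAGT, an ETS core, occurred in 3 of the 24 (MMP7, PLAUR and SPINT1) and in 22.8% of all. These are matches of letters in a window and were not tested as binding sites.

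XBP1 itself, by its 1 probe, fell from between 360% and 369% of the 75th percentile of the array in shCtrl to between 69.0% and 70.7% after knockdown (log2 fold change -2.39, SE 0.04, adjusted p = 2.81e-07). Whether that probe separates the spliced from the unspliced transcript is not known here. Between 82.1% and 84.8% of the spots of an array were well above background. The labels name no slide, so slides were inferred from the identity of the scan of each array. By that, shCtrl replicates 2 and 3 lay on slide 1, and shCtrl replicate 1 lay on slide 2 with the 3 shXBP-1s samples. Slide 1 thus held no shXBP-1s sample, and slide and group are partly mixed. Values within slide 2 rest on shCtrl replicate 1 as the only control array. Their p-values do not measure the spread among controls on that slide. All 9 markers of squamous epithelium were above background, and their summed level, in multiples of the 75th percentile, was 117 to 124 in shCtrl and 155 to 181 in shXBP-1s, with KRT5, KRT14, KRT6A and KRT17 called higher. Of 8 fibroblast markers COL3A1 and THY1 were not tested for lack of signal, and the summed level of the other 6 was 0.970 to 1.06 in shCtrl and 0.670 to 0.691 in shXBP-1s. Among these, DCN, LUM and PDGFRA were called higher and PDGFRB lower, and DCN and PDGFRA turned sign under normexp (-0.32 and -0.84). PDGFRB was the largest part of the sum, at 68.7% to 78.6% in shCtrl and 28.1% to 32.5% in shXBP-1s. PDGFRA was well above background on 1 of 3 shCtrl arrays and was not called within slide 2 (0.49), on the deposited values or without any 1 of 5 of the 6 arrays (all but shCtrl replicate 1). The 6 leukocyte markers, all above background, summed to 5.18 to 7.03 in shCtrl and 4.64 to 4.77 in shXBP-1s. Of these, CD14 was lower (-0.84, below 2-fold), CD68 was higher (0.65, below 2-fold) and CSF1R was called higher (1.04). CD14 was the largest part of the sum, at 391% to 572% in shCtrl and 252% to 282% in shXBP-1s. The 4 endothelial markers summed to 0.215 to 0.275 and 0.260 to 0.277. The part of these shifts in the results on the proteases was not tested. In a bulk sample of a cell line, a change in the share of a kind of cell and in RNA per cell cannot be told apart.

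More of these protease and inhibitor genes rose than fell in shXBP-1s, although the median over the genes turned from 0.38 to -0.07 (log2) under 1 of the background corrections, normexp. The genes were chosen with earlier results of these data known. The counts below therefore only describe them, and the genes were not tested as a set. To be tested, a probe had to give signal well above background throughout at least 1 group, that is on its 3 arrays. To be called, it had to pass an adjusted p of 0.05 and change by 2-fold or more. Of the 52 probes, 48 were tested, from 39 genes. The calls were 11 probes higher, against 2.29% of all 27624 tested probes called higher, and 2 probes lower, against 2.61% of all called lower. The probes called higher belonged to MMP1, MMP10, MMP12, MMP13, MMP24, ADAM12, ADAMTS1 (2 probes), PLAU, SERPINE2 and TMPRSS11E, and those called lower to HPN and MRC2. The probes of TMPRSS11E and ADAM12 entered the test only through shXBP-1s and that of HPN only through shCtrl. Without these 3 the calls were 9 higher and 1 lower among 45 probes. Of all 26306 probes above background on all 6 arrays, 1.81% were called higher and 2.35% lower. Without a minimum fold change, 30 of the 48 probes were higher, against 18.4% of all tested probes, and 9 were lower, against 23.3%. By the probe with the highest mean signal of each gene, the median log2 fold change of the 39 tested genes was 0.38, against -0.04 over all 16821 tested genes, and 26 genes had a value above 0 and 13 below.

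The size of these changes depended on the background correction. Under normexp, a model-based correction of the spot signal, the median of all tested probes moved from -0.02 to -0.41, the median of the member genes was 0.35 above that of all probes, and 4 member probes were called higher and 0 lower. These 4 were MMP10, SERPINE2 and both PLAU probes. MMP10, SERPINE2 and the PLAU probe for NM_001145031 were called under every alternative that was run. Values from normexp given below are to be read against that shift, which by itself can turn a small rise into a fall. Of the called probes that turned sign there, the ADAM12 probe alone also did so relative to the median of all probes (-0.12). MMP12 was then at 0.20.

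**Figure D1:**
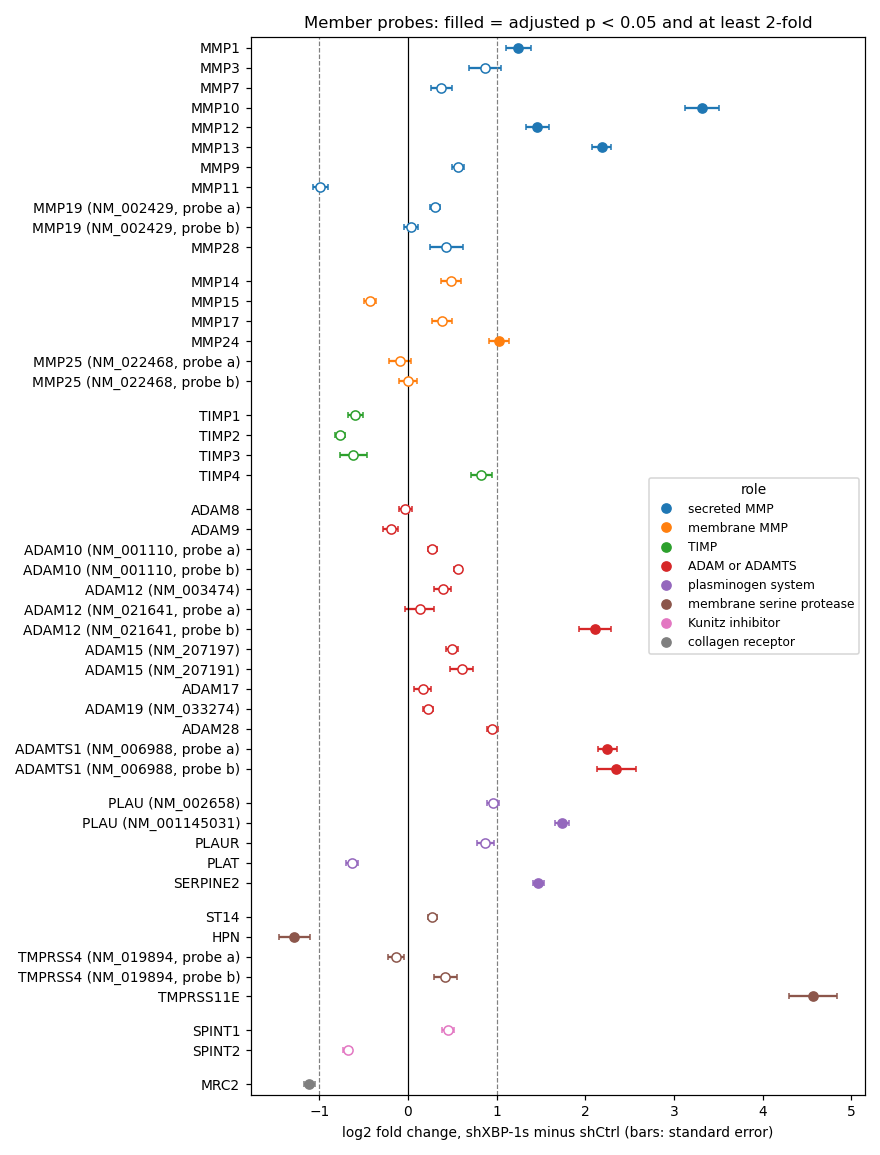
The log2 fold change of each tested member probe (horizontal axis, shXBP-1s minus shCtrl, bars for the standard error) is shown by role, with filled points for called probes and dashed lines at 2-fold. The 11 filled points to the right and the 2 to the left are the calls. Of these, MMP12, MMP24, TMPRSS11E and the called ADAM12 probe turned sign under normexp, which put the median of all tested probes at -0.41.

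Among the 11 secreted MMPs, the row of genes on chromosome 11 was higher in shXBP-1s. All 6 of its genes with signal above background passed an adjusted p of 0.05 (18.4% of all tested probes were higher at that p), 4 of them at 2-fold or more (2.29% of all), and the probes of the other 3 (MMP20, MMP27 and MMP8) were not above background on any array. MMP3 and MMP12 turned sign under normexp, with -0.67 and -0.21, while MMP1, MMP7, MMP10 and MMP13 did not, and of the 6 MMP10 alone was called there.

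MMP10, stromelysin 2, which cuts proteoglycans and activates other MMPs, changed most. Its signal was 3.13%, 5.06% and 4.50% of the 75th percentile on the shCtrl arrays and 34.8%, 41.3% and 48.9% on the shXBP-1s arrays. The lowest shXBP-1s array thus lay far above the highest shCtrl array. The mean log2 signal went from -4.59 ± 0.36 to -1.28 ± 0.25 (SD, n = 3 each), a 9.95-fold rise (log2 fold change 3.31, SE 0.19, adjusted p = 7.91e-06). Within slide 2, against shCtrl replicate 1 alone, the log2 fold change was 3.72.

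MMP13, collagenase 3, which cuts fibrillar collagen, was at 2.00%, 2.35% and 1.95% in shCtrl and at 9.92%, 9.57% and 9.16% in shXBP-1s. The groups did not overlap, and the fold change was 4.56 (log2 2.19, SE 0.11, adjusted p = 4.44e-06). Under normexp the log2 fold change was 0.12, which was not called. MMP12, the macrophage elastase, was at 2.22%, 3.003% and 2.75% in shCtrl and at 6.93%, 7.16% and 7.68% in shXBP-1s, a 2.75-fold rise (log2 1.46, SE 0.13, adjusted p = 6.94e-05) whose sign turned under normexp. MMP1, the interstitial collagenase, was read by 10 spots per array and rose from 5.29%, 7.69% and 6.56% to 13.7%, 15.5% and 16.7%. That was a 2.37-fold rise (log2 1.25, SE 0.14, adjusted p = 2.47e-04), with shCtrl replicate 1 the lowest array, so that the log2 fold change within slide 2 was 1.53.

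MMP3, stromelysin 1 and a close relative of MMP10, was at 1.36%, 1.75% and 1.30% in shCtrl and at 2.29%, 2.70% and 3.05% in shXBP-1s. The groups did not overlap, but the log2 fold change of 0.87 (SE 0.18, adjusted p = 0.00518) was below 2-fold, and it turned sign under normexp. Without shCtrl replicate 2 it was 1.001 and was called. MMP7, matrilysin, a small MMP made by epithelial cells, was at 257%, 181% and 211% in shCtrl and at 262%, 271% and 302% in shXBP-1s. Its log2 fold change was 0.38 (SE 0.12, adjusted p = 0.0372), and since shCtrl replicate 1 lay close to the shXBP-1s arrays it was 0.11 within slide 2 and did not pass there (adjusted p = 0.493). Probe sequences were not used here, so that reading of one MMP by the probe of a relative was not tested.

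**Figure D2:**
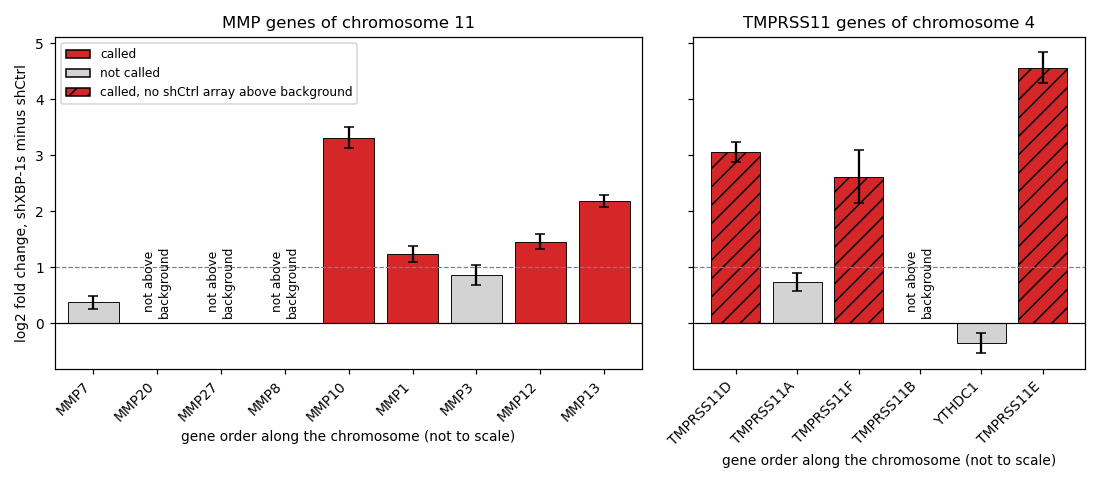
Bars give the log2 fold change (shXBP-1s minus shCtrl, with standard error) of the probe with the highest signal of each gene, in the order of the genes along chromosome 11 (left) and chromosome 4 (right). MMP10 stands at 3.31. Hatched bars had no shCtrl array above background, so that their heights have no rank and only a lower bound holds for them. MMP3, MMP12 and all 4 TMPRSS11 genes shown with a bar turned sign under normexp, which put the median of all tested probes at -0.41.

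Of the other secreted MMPs, MMP9, the gelatinase that cuts basement membrane collagen, was at 8.63%, 8.55% and 9.11% in shCtrl and at 12.4%, 13.4% and 13.1% in shXBP-1s. The log2 fold change was 0.56 (SE 0.07, adjusted p = 3.83e-04) and was -0.19 under normexp. MMP2, the other gelatinase, was well above background on 0 of 3 shCtrl arrays and 1 of 3 shXBP-1s arrays and was not tested. MMP11, stromelysin 3, fell from 11.4%, 10.7% and 10.4% to 5.72%, 5.61% and 5.08%. This change of -0.99 (SE 0.08, adjusted p = 5.68e-05) was just short of 2-fold and passed it within slide 2 (-1.07) and without any 1 of 3 arrays (shCtrl replicate 3, shXBP-1s replicate 1 or shXBP-1s replicate 2), the lowest of these values being -1.02. Of the 10 tested secreted MMPs it was the 1 that fell at an adjusted p below 0.05.

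MMP19 had 2 probes for the same transcript, at 0.31 (SE 0.06, adjusted p = 0.00308) and 0.03 (SE 0.08, adjusted p = 0.751, with -0.42 under normexp). At the first of these probes the shCtrl arrays were at 30.8%, 30.0% and 28.7% and the shXBP-1s arrays at 38.3%, 37.2% and 35.5%. MMP28, epilysin, which is made by keratinocytes, did not pass (0.43, SE 0.19, adjusted p = 0.100). Its shCtrl replicate 1 (18.1%) lay apart from replicates 2 and 3 (30.7% and 30.4%). Within slide 2, where that array is the only control, the log2 fold change was 0.94.

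Of the 5 tested membrane MMPs 1 was called. MMP24, known mainly from the nervous system, was called higher, from 2.60%, 2.64% and 2.81% in shCtrl to 5.01%, 5.35% and 6.12% in shXBP-1s, a 2.04-fold rise (log2 1.03, SE 0.11, adjusted p = 1.93e-04). The call was lost without shXBP-1s replicate 3 (0.95), and under normexp the sign turned (-0.37). MMP14, the membrane collagenase that activates proMMP2, was higher by 0.48 (SE 0.11, adjusted p = 0.0106), with shCtrl between 21.6% and 25.7% and shXBP-1s between 29.1% and 39.1%, but it did not pass within slide 2 (0.43, adjusted p = 0.0899). MMP17 was higher by 0.38 (adjusted p = 0.0264), with -0.03 under normexp, and MMP15 was lower by 0.43 (log2 fold change -0.43, adjusted p = 0.00114). MMP25 did not pass by either probe (-0.08 and 0.004, the latter -0.74 under normexp). Within slide 2, against shCtrl replicate 1 alone, the former was -0.36. At the former the shCtrl arrays (100.5%, 83.9% and 68.3%) overlapped the shXBP-1s arrays (77.4%, 75.7% and 82.3%). MMP16 was not above background on any array.

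Of the 4 TIMPs, 3 fell and TIMP4 rose, all at an adjusted p below 0.05 and none by 2-fold. Of all tested probes, 23.3% were lower and 18.4% higher at that p. TIMP2, which blocks MMPs and also takes part in the activation of proMMP2 by MMP14, was at 2500%, 2723% and 2585% of the 75th percentile in shCtrl and at 1494%, 1506% and 1601% in shXBP-1s. Every shXBP-1s array was below every shCtrl array, and the log2 fold change was -0.76 (SE 0.05, adjusted p = 2.16e-05). TIMP1, a secreted inhibitor of most MMPs, fell from 52.1%, 49.1% and 56.7% to 38.5%, 34.7% and 31.8% (-0.59, SE 0.09, adjusted p = 8.51e-04). TIMP3, which is bound to the matrix and also blocks ADAM17, went from 8.17%, 7.73% and 8.01% to 6.21%, 5.60% and 4.03%. Its log2 fold change of -0.62 (SE 0.15, adjusted p = 0.0138) leaned on shXBP-1s replicate 3, the lowest array, without which it was -0.43, and it did not pass within slide 2 (-0.65, adjusted p = 0.0632). TIMP4 rose from 1.73%, 1.83% and 1.95% to 3.03%, 3.34% and 3.42% (0.83, SE 0.12, adjusted p = 0.00100) but was -0.64 under normexp. There, TIMP1, TIMP2 and TIMP3 were at -0.56, -0.61 and -0.96, and the median of all tested probes was -0.41. That shift favours a negative sign, so that a kept negative sign under normexp says little.

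**Figure D3:**
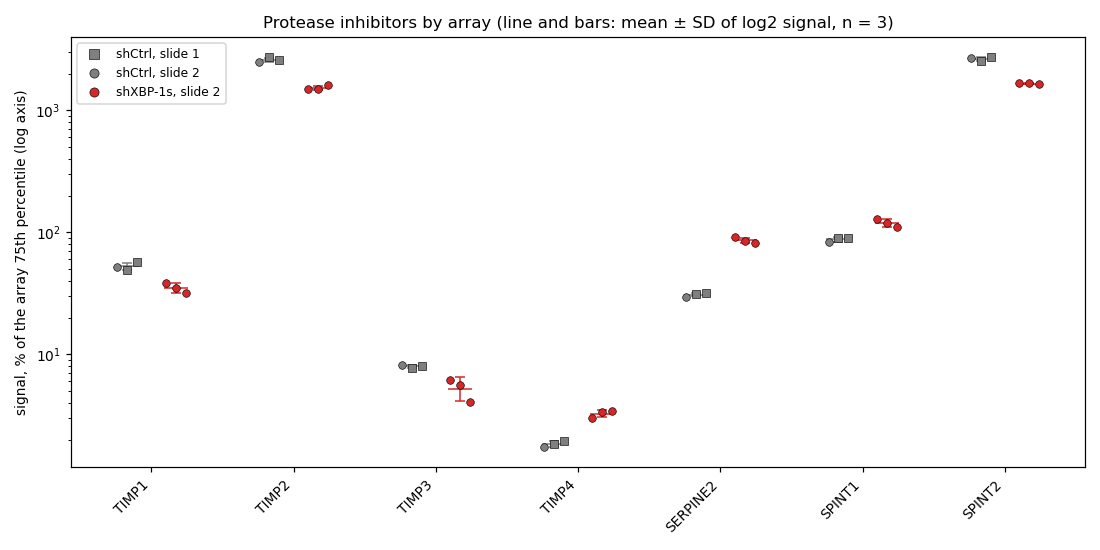
Signal of the protease inhibitors on each array, as a percentage of the 75th percentile of that array (log axis), with squares for slide 1, circles for slide 2 and lines for the mean ± SD of the log2 signal (n = 3). TIMP1, TIMP2, TIMP3 and SPINT2 were lower and TIMP4, SERPINE2 and SPINT1 higher on every shXBP-1s array than on every shCtrl array, and TIMP4 turned sign under normexp.

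Among the 10 ADAM and ADAMTS genes, ADAMTS1 stood out with a rise by both of its probes. ADAMTS1 cuts the proteoglycans aggrecan and versican. At the probe with more signal it went from 4.77%, 4.43% and 5.43% to 20.7%, 23.5% and 25.5%, a 4.76-fold rise (log2 2.25, SE 0.11, adjusted p = 4.22e-06). At the other it went from 3.94%, 2.01% and 2.43% to 13.5%, 14.3% and 13.3% (log2 2.35, SE 0.22, adjusted p = 9.32e-05). The probes gave like changes, and neither had any overlap between the groups. Within slide 2 the values were 2.28 and 1.80, and under normexp they were 0.57 and 0.34 and were not called.

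ADAM12, a sheddase of HBEGF and IGF-binding proteins, had 3 probes that disagreed. The called probe was for NM_021641, the accession of a short form of the transcript. It was well above background on 0 of 3 shCtrl arrays (0.643%, 0.687% and 0.893%) and on all 3 shXBP-1s arrays (3.04%, 3.50% and 2.97%). That was a rise of at least 4.11-fold over the signal that counts as above background, with a sign that turned under normexp (-0.53). The adjusted p of the limma fit (5.69e-05) used the shCtrl signals below background and does not test that bound. The other probe for that accession did not pass (0.13, SE 0.16, adjusted p = 0.546, with -0.59 under normexp), with shCtrl between 6.69% and 10.3% and shXBP-1s between 9.20% and 10.0%. The probe for NM_003474, of the long form, was higher by 0.39 (SE 0.09, adjusted p = 0.0105), with -0.33 under normexp, and did not pass within slide 2 (0.27, adjusted p = 0.121).

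ADAM15, an ADAM with an integrin-binding site, was higher by both probes, 0.50 (SE 0.07, adjusted p = 6.14e-04) and 0.61 (SE 0.13, adjusted p = 0.00630). At the first of these it was at 1493%, 1644% and 1562% in shCtrl and at 2052%, 2204% and 2376% in shXBP-1s. ADAM10, the sheddase of NOTCH and E-cadherin, was also higher by both probes, by 0.28 (adjusted p = 0.00445) and 0.57 (adjusted p = 5.59e-05). ADAM17, which releases TNF and several EGFR ligands, did not pass (0.17, SE 0.10, adjusted p = 0.204). Its arrays overlapped, at 165%, 186% and 213% in shCtrl and 226%, 211% and 195% in shXBP-1s. Within slide 2, against shCtrl replicate 1 alone, the log2 fold change was 0.35. ADAM8, found on leukocytes and on invasive tumour cells, did not pass (-0.03, SE 0.07, adjusted p = 0.781, with 0.071 under normexp), with shCtrl between 700.4% and 709.5% and shXBP-1s between 624.8% and 755.9%.
ADAM28 was higher by 0.95 (SE 0.07, adjusted p = 1.79e-05), just short of 2-fold, and ADAM19 by 0.23 (adjusted p = 0.0127), which was -0.07 under normexp and did not pass within slide 2 (0.20, adjusted p = 0.0957). A further ADAM19 probe was above background on 0 of 3 shCtrl and 2 of 3 shXBP-1s arrays and was not tested. ADAM9 did not pass (-0.19, adjusted p = 0.106), and ADAMTS5, an aggrecanase of cartilage, was not above background on any array.

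In the plasminogen system, urokinase and its receptor rose while the tissue-type activator fell. Under normexp that fall came near the median of all tested probes. PLAU had 2 probes. At the probe for NM_002658, with 10 spots per array, it went from 4565%, 4143% and 4388% of the 75th percentile to 7809%, 8546% and 9129%, a 1.94-fold rise that was just short of the threshold (log2 0.96, SE 0.07, adjusted p = 2.93e-05). At the probe for NM_001145031 it went from 102%, 80.9% and 92.9% to 316%, 307% and 294%, a 3.34-fold rise (log2 1.74, SE 0.08, adjusted p = 4.22e-06). Quantile normalization and the deposited log2 values put the first probe past 2-fold as well (1.08 on the deposited values). PLAUR, the urokinase receptor, rose from 52.0%, 40.8% and 49.6% to 90.4%, 86.3% and 83.2% (log2 0.87, SE 0.09, adjusted p = 1.54e-04).

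PLAT, the tissue-type activator, fell from 4972%, 4153% and 4579% to 2880%, 2943% and 3013%. Its log2 fold change was -0.63 (SE 0.07, adjusted p = 2.31e-04), and -0.76 within slide 2. Under normexp PLAT was at -0.49, close to the median of all tested probes there (-0.41). SERPINE2, protease nexin 1, which inhibits thrombin, urokinase and the tissue-type activator, rose from 29.7%, 31.4% and 31.8% to 91.1%, 84.4% and 82.1%. That was a 2.77-fold rise (log2 1.47, SE 0.06, adjusted p = 2.36e-06), with 1.53 within slide 2 and 1.08 under normexp.

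**Figure D4:**
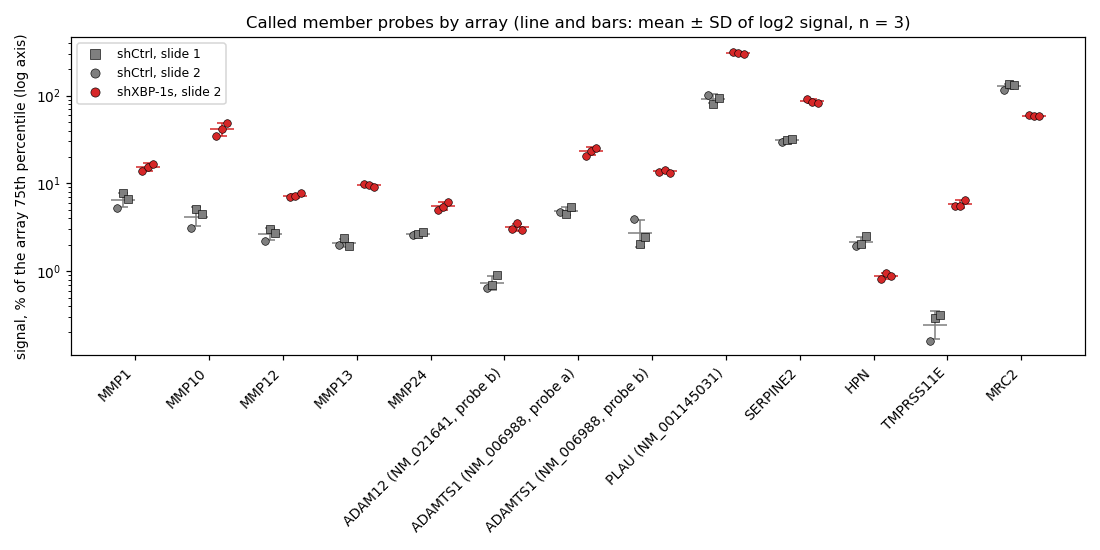
Signal of the 13 called member probes on each array, as a percentage of the 75th percentile of that array (log axis), with squares for slide 1, circles for slide 2 and lines for the mean ± SD of the log2 signal (n = 3). MMP10 was between 3.13% and 5.06% in shCtrl and between 34.8% and 48.9% in shXBP-1s, and no probe shown had overlapping groups. The signs of MMP12, MMP24, TMPRSS11E and the ADAM12 probe turned under normexp, which put the median of all tested probes at -0.41.

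Among the membrane serine proteases TMPRSS11E, a protease of stratified squamous epithelium, was called higher. It was well above background on 0 of 3 shCtrl arrays (0.162%, 0.289% and 0.317%) and on all 3 shXBP-1s arrays (5.50%, 5.48% and 6.53%). This was a rise of at least 7.88-fold over the lowest signal well above background, and the sign turned under normexp (-0.10). The adjusted p of the limma fit (9.93e-06) used the shCtrl signals below background and does not test that bound. TMPRSS11E lies on chromosome 4 in a row with TMPRSS11D, TMPRSS11A, TMPRSS11F and TMPRSS11B, with YTHDC1, which did not pass (-0.35, adjusted p = 0.165), between TMPRSS11B and TMPRSS11E. Of these relatives TMPRSS11D and TMPRSS11F were likewise above background on 0 of 3 shCtrl and all 3 shXBP-1s arrays, with rises of at least 6.61-fold and 2.76-fold, and both turned sign under normexp (-0.23 and -0.66). TMPRSS11A was higher by 0.74 (adjusted p = 0.00746) at the probe with more signal, again with the opposite sign under normexp (-0.73), and TMPRSS11B was not above background on any array.

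HPN, hepsin, which activates pro-HGF, was called lower, at 1.93%, 2.01% and 2.49% in shCtrl and at 0.810%, 0.964% and 0.868% in shXBP-1s (log2 -1.28, SE 0.17, adjusted p = 6.53e-04). Of the shXBP-1s arrays 1 of 3 was well above background, so the fold change of 2.43 is limited by the background. ST14, matriptase, was at 375%, 359% and 373% in shCtrl and at 464%, 443% and 434% in shXBP-1s (log2 0.28, SE 0.05, adjusted p = 0.00188). TMPRSS4 had 2 probes that disagreed, at -0.13 (adjusted p = 0.288) and 0.42 (adjusted p = 0.0322). Within slide 2, against shCtrl replicate 1 alone, the former was at -0.32 and the latter at 0.29. At the former the shCtrl arrays (47.4%, 37.0% and 41.0%) overlapped the shXBP-1s arrays (39.9%, 37.9% and 36.2%).

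The Kunitz inhibitors of matriptase and hepsin moved apart. SPINT1 rose from 83.0%, 89.1% and 90.4% to 128%, 119% and 111% (log2 0.45, SE 0.07, adjusted p = 9.05e-04). SPINT2 fell from 2671%, 2540% and 2742% to 1668%, 1662% and 1640% (log2 -0.68, SE 0.05, adjusted p = 2.22e-05). Neither change reached 2-fold, and in neither gene did the groups overlap. Under normexp SPINT1 was at 0.40 and SPINT2 at -0.50, the latter close to the median of all tested probes there (-0.41). MRC2, the endocytic receptor that takes up collagen fragments, fell from 117%, 134% and 131% to 60.2%, 57.8% and 58.4%. This 2.16-fold fall (log2 -1.11, SE 0.06, adjusted p = 7.22e-06) was -0.99 within slide 2 and was not called there.

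**Figure D5:**
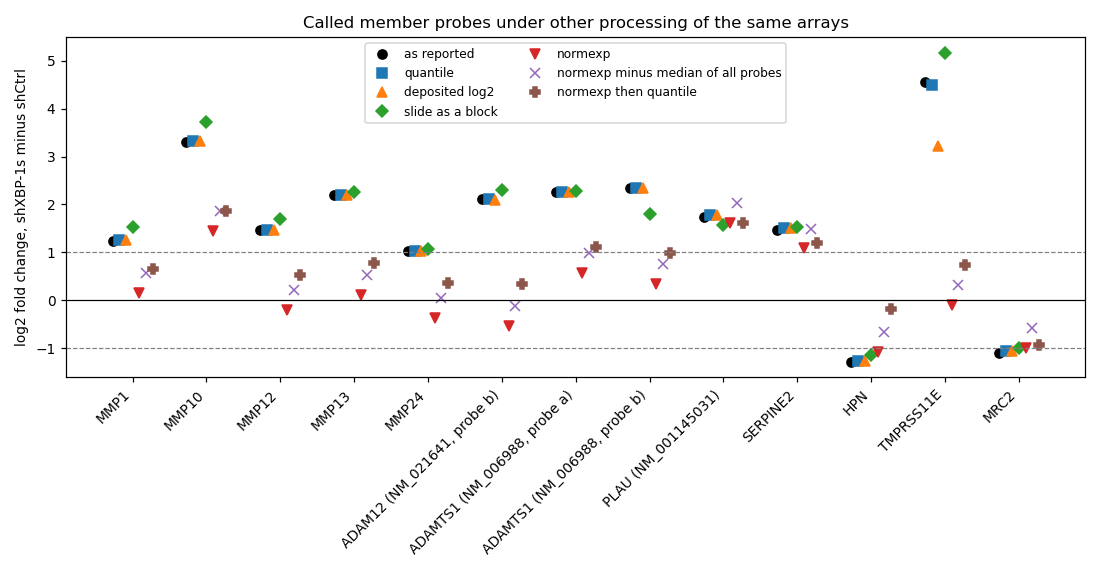
The log2 fold change (shXBP-1s minus shCtrl) of the 13 called member probes as reported and under 6 other ways to process the same arrays. Quantile normalization, the deposited log2 values and the slide as a block stay close to the reported value for most probes. Normexp gives 0.12 for MMP13 and turns the sign of MMP12 (-0.21), MMP24 (-0.37), TMPRSS11E (-0.10) and the ADAM12 probe (-0.53). It puts the median of all tested probes at -0.41, and relative to that median MMP12 is at 0.20 and the ADAM12 probe at -0.12.

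Genes of the same pathways outside the 42 were looked up by the probe with the highest signal. Of 34 other MMP, ADAM, ADAMTS, meprin and tolloid proteases 23 were tested, and 0 were called by limma at 2-fold or more, with 9 at an unadjusted p below 0.05, 6 higher and 3 lower when any size of change was counted at an adjusted p below 0.05, and a median log2 fold change of 0.14. Among other genes of the plasminogen system, the urokinase inhibitor SERPINB2 (log2 5.08) and S100A10 (1.03), part of a plasminogen receptor, were called higher, and SERPINA5 (-1.07) was called lower. S100A10 was not called within slide 2 (0.93). PLG, plasminogen itself, was not tested for lack of signal.

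Of 22 other membrane serine proteases and convertases 19 were tested, and 3 were called higher, TMPRSS11D, TMPRSS11F and FAP. FAP, a membrane protease also used as a mark of activated fibroblasts, went from 1.61%, 1.33% and 1.53% to 4.80%, 5.60% and 4.73% (log2 1.76, SE 0.13), and turned sign under normexp (-0.38). Of 16 further inhibitors and regulators 15 were tested, with 3 called higher, SPOCK1 (1.49), THBS2 (1.25) and THBS1 (1.20), and 0 called lower. All 20 substrates and receptors of these proteases were tested, with HGF called higher (1.08) and TNF lower (-1.13). HGF was well above background on 1 of 3 shCtrl arrays, within slide 2 it was 0.42 and was not called, and under normexp the sign turned (-0.84).

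With 3 arrays against 3 the exact 2-sided permutation test of a single probe cannot give a p below 0.1, and 40 of the 48 tested probes reached that value. Their groups did not overlap, 31 with shXBP-1s higher, against 23.9% of all tested probes, and 9 with shXBP-1s lower, against 28.5%. Precision is limited by having 3 arrays in a group.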

How the data were processed

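The authors deposited 1 scanner file per array, made with Agilent Feature Extraction 11.0.1.1. Its processed intensity is background-subtracted and spatially detrended but not normalized between arrays. The authors also deposited a table of log2 values with equal quartiles on the 6 arrays, used here as an alternative. The submitters' processing notes name RMA. The methods state no normalization or threshold for the arrays.

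Non-uniform and population outlier spots were left out (230 to 377 per array), each log2 intensity had the log2 75th percentile of its array subtracted, and replicate spots were averaged. A signal in percent is 100 times the ratio to that percentile. Of 34127 probes, 19 lacked an unflagged spot on an array. A probe was well above background when over 50% of its spots were. Probes that passed this on all 3 arrays of a group were fitted with limma 3.58.1 (R 4.3.3, lmFit and eBayes with trend), 2-sided, with Benjamini-Hochberg adjustment over all 27624 tested probes, and SE is limma's. Symbols came from RefSeq accessions (25771 probes, GRCh38.p14), and 8356 probes stay unnamed. Tested on simulated data for this comparison, with 27624 probes, limma recovered 192 of 200 changed probes (96%) with 0 other calls. How that share depends on the size of a change, such as one close to 2-fold, or on the slide was not tested.

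"At least N-fold" sets the mean of the brighter group against, per array of the dimmer group, the higher of its lowest signal well above background and the probe's own signal. Members with a call and the up to 3 members of a role with the highest signal were given in full, and up to 4 called genes per other list. The members and lists were chosen with earlier results of these data known. Not every gene of the other lists is reported here.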

Additional observations from a re-analysis of the deposited data

How the results depend on the processing

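XBP1 stayed called under every alternative run, with -2.40 to -2.38 (log2) when 1 array was left out. Leaving out 1 array gave 10 to 12 member probes called higher, 2 to 3 lower, 9 to 12 member genes called by the probe with the highest signal, 1253 to 1695 probes called in all, and a median over the member genes of 0.33 to 0.40. Normexp on the median spot and background signals gave 4, 0, 3 and 473 calls in that order and a median of -0.066, and normexp followed by quantile normalization gave 5, 0, 4 and 357 and a median of 0.27. With normexp set relative to the median of all tested probes, an alternative chosen after seeing the data, 6 probes were called higher and 0 lower. Requiring all 6 arrays above background left 1 probe called lower and gave no value for HPN, TMPRSS11E and the called ADAM12 probe. Without a minimum fold change the counts were 30, 9, 33 and 11516.

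Signs turned mostly under normexp, which gave -0.67 for MMP3, -0.21 for MMP12, -0.19 for MMP9, -0.42 for the dimmer MMP19 probe, -0.025 for MMP17, -0.37 for MMP24, -0.74 for the dimmer MMP25 probe, -0.64 for TIMP4, 0.071 for ADAM8, -0.33, -0.59 and -0.53 for the ADAM12 probes, -0.066 for ADAM19 and -0.10 for TMPRSS11E. Relative to the median of all probes it gave -0.26 for MMP3, -0.0076 for that MMP19 probe, 0.33 and -0.32 for MMP25, -0.22 for TIMP4, 0.48 for ADAM8, 0.022 for ADAM9, -0.17 and -0.12 for the ADAM12 probes of NM_021641 and 0.15 for the brighter TMPRSS4 probe. With quantile normalization after normexp the dimmer MMP25 probe was at -0.035 and ADAM8 at 0.0026, ADAM8 was at 0.035 under quantile normalization and also at 0.035 on the deposited values, and the ADAM12 probe of NM_021641 that was not called was at -0.045 with the slide as a block. Leaving out 1 array gave ranges across 0 for MMP19 (-0.013 to 0.095), MMP25 (-0.23 to 0.051 and -0.052 to 0.088), ADAM8 (-0.091 to 0.046) and ADAM12 (-0.068 to 0.24). The cause was not tested. With the replicate number as a block, 11 member probes were called higher and 2 lower, 10 member genes, 1381 probes in all and a median of 0.38, with no member call changed. Same-numbered arrays correlated at -0.02, 0.12 and -0.12 in their deviations from the group means, so the numbers do not pair the samples. For weak probes the signal over background limits what can be read.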
